A study of Mus musculus with 6 samples.

Results

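A set of 10 genes of the machinery that keeps retrotransposons silent through chromatin was followed while J1 mouse embryonic stem (ES) cells lost DNA methylation: Trim28, Setdb1, Zfp809, Zfp57, Atrx, Daxx, Chaf1a, Chaf1b, Hells and Morc3. They were listed by name for their function in silencing, with earlier results of these data known. All 10 were found among the 12626 genes and 302 transposon families of the RNA-seq tables. WT J1 cells, a feeder-free line kept on gelatin, were sampled at day 0 (D0) in serum with LIF, and at day 6 (D6) and day 13 (D13) after transfer to 2i+vitC, a serum-free medium with LIF, the Gsk3 inhibitor CT-99021, the MEK inhibitor PD0325901 and vitamin C. Each day had 2 biological replicates, 6 samples in all, and the p-values below measure the spread between these replicates. Between D0 and either later day the medium changed with time in culture, and the 2 cannot be told apart, whereas D6 and D13 shared the medium. The measurement was of mRNA, not protein. The paper reports that most transposon families were relaxed at D6 and repressed again by D13, some of them only in part. The question put to these 10 genes was whether their transcripts changed over these steps.

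The corepressor KAP1, encoded by Trim28, does not bind DNA. It is brought to retrotransposons by KRAB zinc finger proteins that each read a short stretch of sequence, and it recruits SETDB1, the enzyme that trimethylates lysine 9 of histone H3. Other silencers work beside this pair: ATRX and DAXX place the histone variant H3.3 in heterochromatin, CAF-1 loads histones onto newly replicated DNA, HELLS (also called LSH) remodels nucleosomes so that DNA can be methylated, and MORC3 is a GHKL ATPase needed for the silencing of endogenous retroviruses.

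The samples held between 73230745 and 83688345 reads on genes, and no member had fewer than 871 reads in any sample. Values below are log2 CPM (counts scaled to library size), the scale the authors deposited, on which 1 unit is a 2-fold difference, and levels are compared between genes only as RPKM, the same quantity per kb of exon. The 7 ES cell markers were all present, with Pou5f1 between 9.46 and 10.18 log2 CPM, but they were not constant. From D0 to D13, Nanog (1.37) and Dppa5a (1.31) rose and Utf1 (-2.96) and Sox2 (-0.69) fell, by limma at an adjusted p under 0.05. Pou5f1, Esrrb and Zfp42 were not called over this span. Of 6 fibroblast markers only Col1a1 and Col1a2 had a row, with a summed level of 23.2 CPM in D0 replicate 1, 6.73 CPM in D0 replicate 2 and 2.16 to 4.12 CPM later. Of 5 endoderm markers Sox17 and Dab2 had one, with a sum of 16.5 to 18.0 CPM at D0 and 1.53 to 2.13 CPM later. The fall in this sum was that of Dab2, whose log2 difference from D0 to D13 was -4.66 ± 0.40 (SE). Sox17 did not fall (0.30 ± 0.49). The part of fibroblasts or endoderm cells in the results was not tested. The 2 samples of D13 differed by transcript length: the median gene of the shortest length quartile was 0.44 log2 units higher in replicate 1, and that of the longest quartile 0.51 lower (-0.51). The same differences were 0.13 and -0.20 at D0 and 0.03 and -0.08 at D6.

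Few of the 10 transcripts passed the test in any comparison. Differences between days were tested with limma on all 6 samples, with Benjamini-Hochberg adjustment across all 12928 rows, families included. At an adjusted p under 0.05, 1 of the 10 members was called between D0 and D6 (Zfp57, which rose), against 23.9% of everything tested. Between D6 and D13, 1 member was called (Zfp809, which fell), against 4.18% of all, and between D0 and D13 again 1 (Chaf1a, which fell), against 42.1%. When D6 was set against the mean of D0 and D13, 2 members were called (Zfp57 and Zfp809, both higher at D6), against 8.87% of all. Split by direction, 13.7% of all rose and 10.2% fell from D0 to D6, 1.39% rose and 2.78% fell from D6 to D13, 20.6% rose and 21.5% fell from D0 to D13, and 5.61% were higher and 3.26% lower at D6 than the mean of the other days. The members' counts are too small to be set apart from these shares. None of the 10 passed the study's own minimum of a 4-fold difference for genes, which 9.75%, 1.1%, 13.3% and 2.61% of all passed in these 4 comparisons, and at an unadjusted p under 0.05 the members counted 3, 3, 3 and 4 of 10, beside 35.5%, 24.8%, 50.9% and 21.8% of all. The median size of the members' log2 difference was 0.44 by D6, 0.32 over the later step and 0.48 over the whole course, beside 0.45, 0.39 and 0.69 for everything tested.

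**Figure D1:**
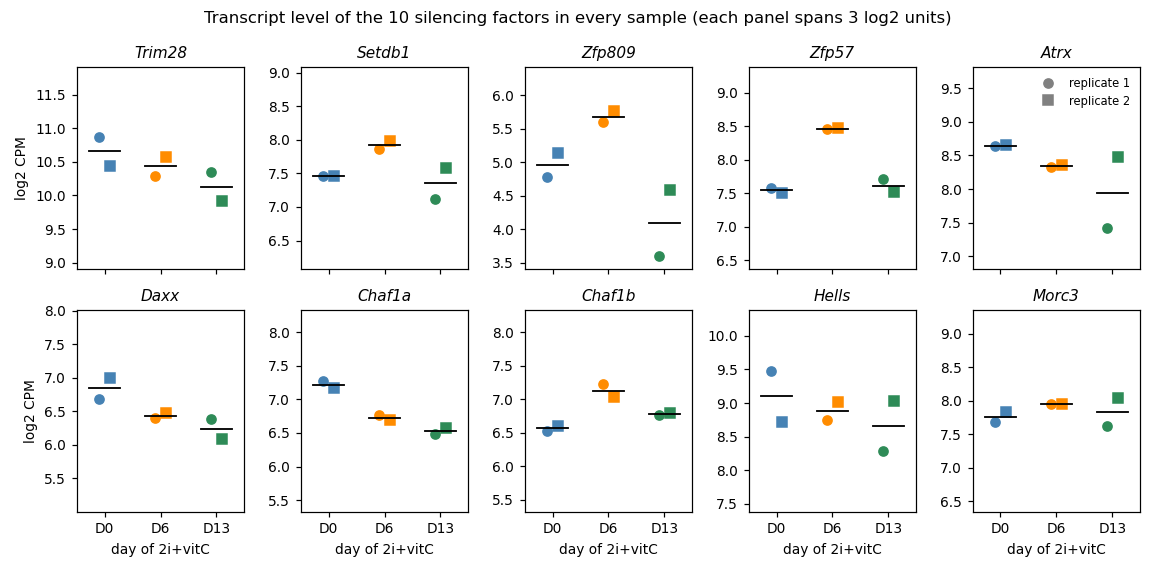
Level of each of the 10 silencing factors in log2 CPM (y axis) at D0, D6 and D13 (x axis), with circles for replicate 1, squares for replicate 2 and a line at the mean of both; every panel spans 3 log2 units. Zfp57 and Zfp809 stood highest at D6 (means 8.46 and 5.68), Chaf1a was highest at D0 (7.22), and the 2 D13 samples of Atrx, Hells and Zfp809 lay far apart.

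Trim28 was the most abundant of the 10 by a wide margin. Its level per length was 503 ± 106 RPKM at D0, 428 ± 60.5 RPKM at D6 and 349 ± 73.3 RPKM at D13 (SD, n = 2), which at D0 was above 99.3% of the 11184 genes with a length. In log2 CPM it was 10.87 and 10.44 at D0, then 10.29 and 10.58 at D6, then 10.35 and 9.92 at D13. The replicates of each day differed by about as much as the days, and the D6 values lay among those of the other days. No difference passed the test: from D0 to D6 it was -0.23 ± 0.28 (SE, adjusted p = 0.624), from D6 to D13 -0.30 ± 0.28 (adjusted p = 0.545), and from D0 to D13 -0.53 ± 0.28 (adjusted p = 0.162). The 95% interval of the D13 to D0 ratio ran from 0.446 to 1.08, so that a fall by more than a factor of 2 was still inside it.

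Setdb1, the H3K9 methyltransferase that KAP1 recruits, was expressed far below Trim28 in every sample. It was 7.46 and 7.46 log2 CPM at D0, then 7.86 and 7.99 at D6, then 7.13 and 7.58 at D13. Both D6 samples were above all 4 others, and the D13 samples lay on either side of D0. The rise from D0 to D6 was 0.46 ± 0.22 (adjusted p = 0.178), the difference from D6 to D13 was -0.57 ± 0.22 (adjusted p = 0.160), and D6 against the mean of D0 and D13 gave 0.52 ± 0.19 (adjusted p = 0.152), none of which passed the test. Setdb1 went past it from D6 to D13 without D13 replicate 2 (-0.80, adjusted p = 0.0476) and, from D0 to D6, with the trend over transcript length removed (0.52, adjusted p = 0.0341). A 75-base stretch of its exons is shared with Cers2 on the opposite strand.

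The ratio of Trim28 to Setdb1, per length, was 15.3 and 11.3 at D0, then 7.73 and 8.65 at D6, then 13.4 and 7.27 at D13. D6 was thus below both D0 samples, while D13 spanned nearly the whole range. Ratios of partners were not tested and are given as a description.

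The 2 zinc finger genes stood highest at D6 and were the only members called at D6 against the mean of D0 and D13. The D6 samples of Setdb1 and Chaf1b were also above all their other samples. Zfp57 encodes the KRAB zinc finger protein that binds methylated DNA at imprinted control regions and keeps them methylated. Zfp809 encodes the one that recruits KAP1 to the primer binding site of murine leukaemia virus and related endogenous retroviruses.

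Zfp57 was 7.58 and 7.51 log2 CPM at D0, then 8.45 and 8.47 at D6, then 7.71 and 7.52 at D13. Both D6 samples were far above the other 4, which lay close together. The gene rose by 0.92 ± 0.20 from D0 to D6 (1.89-fold, 95% interval 1.38 to 2.59, adjusted p = 0.0104), and at D6 it was 0.88 ± 0.17 above the mean of D0 and D13 (adjusted p = 0.0164). From D6 to D13 the difference was -0.85 ± 0.20 (adjusted p = 0.0514), just outside the threshold, and D13 was 0.07 ± 0.20 from D0 (adjusted p = 0.791). Without D6 replicate 1 or 2 the difference from D0 to D6 was 0.93 or 0.91, and the adjusted p was 0.130 or 0.126. In these fits, in which the lone D6 sample is assumed to vary like the other days, 1602 and 1821 of the 12928 rows were called in place of 3090. For D6 against the mean of D0 and D13 the adjusted p was then 0.241 and 0.248, with 255 and 344 rows called in place of 1147. The return from D6 to D13 passed the threshold by a small margin when genes alone were fitted or D0 replicate 2 was left out (both adjusted p = 0.0493), without D0 replicate 1 (adjusted p = 0.0495), and when the trend over transcript length was removed (-0.80, adjusted p = 0.0264).

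Zfp809 was the least abundant member at D0 and D13, with a level of 15.0 ± 2.65 RPKM at D0, 24.6 ± 1.96 RPKM at D6 and 8.69 ± 4.02 RPKM at D13 (SD, n = 2). It was 4.78 and 5.14 log2 CPM at D0, then 5.60 and 5.76 at D6, then 3.61 and 4.59 at D13. The days did not overlap in any pair: both D6 samples were the highest and both D13 samples the lowest, but D13 replicate 1, with 871 reads, was nearly 1 unit below replicate 2, with 1806 reads. From D6 to D13 the transcript fell by 1.58 ± 0.33 on the log2 scale (to 0.334 of its D6 level, 95% interval 0.198 to 0.564, adjusted p = 0.0372), and D6 was 1.15 ± 0.29 above the mean of D0 and D13 (adjusted p = 0.0415). The rise from D0 to D6, 0.72 ± 0.33 (adjusted p = 0.157), and the difference from D0 to D13, -0.86 ± 0.33 (adjusted p = 0.0661), did not pass.

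The D13 samples set the size of the Zfp809 fall. Without D13 replicate 1 the difference from D6 to D13 was -1.09 (adjusted p = 0.136), and without D13 replicate 2 it was -2.07 (adjusted p = 0.0269). Without D6 replicate 1 it was -1.66 (adjusted p = 0.131) and without D6 replicate 2 -1.50 (adjusted p = 0.223), close to the -1.58 of all 6 samples. Few rows of any kind passed over this step when a sample was left out, 0 without D13 replicate 1, 64 without D6 replicate 1 and 21 without D6 replicate 2, against 540 of 12928 with all samples. Without D13 replicate 2 the difference from D0 to D13 passed as well (-1.35, adjusted p = 0.00809). D6 against the mean of D0 and D13 lost its call without D0 replicate 1 (1.06, adjusted p = 0.0947), D0 replicate 2 (1.24, adjusted p = 0.0553), D6 replicate 1 (1.23, adjusted p = 0.178) or D6 replicate 2 (1.07, adjusted p = 0.272), and with the length trend removed (1.16, adjusted p = 0.0527). Without a mean-variance trend in the fit, neither was called (adjusted p = 0.0564 and 0.0671). The rise from D0 to D6 passed without D13 replicate 1 or 2 (both 0.72, adjusted p = 0.0435 and 0.0457). Zfp809 belongs to a large family of similar genes, and how reads shared between its copies were counted is not given in the sources used here.

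The level of Zfp57 relative to Trim28, per length, was 0.106 and 0.136 at D0, then 0.291 and 0.241 at D6, then 0.166 and 0.198 at D13. Every D6 value was above every other value, and both D13 values were above both D0 values. For Zfp809 the ratio to Trim28 was 0.0227 and 0.0394 at D0, then 0.0603 and 0.0553 at D6, then 0.0146 and 0.0388 at D13. Here too D6 was highest, while D0 and D13 overlapped.

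ATRX and DAXX form the H3.3 deposition complex of heterochromatin, ATRX as the remodeller and DAXX as the histone chaperone. Atrx was 8.64 and 8.65 log2 CPM at D0, then 8.33 and 8.35 at D6, then 7.41 and 8.48 at D13. The D0 and D6 pairs were each within 0.03 units, whereas the D13 samples were 1.07 units apart, on either side of D6. From D0 to D13 the difference was -0.70 ± 0.32 (adjusted p = 0.115), and it was -0.16 without D13 replicate 1 (adjusted p = 0.534) and -1.23 without D13 replicate 2 (adjusted p = 0.00399). From D6 to D13 the difference of -0.39 ± 0.32 (adjusted p = 0.490) became -0.93 without D13 replicate 2 (adjusted p = 0.0394) and 0.14 without D13 replicate 1 (adjusted p = 0.731). Atrx has the longest exons of the 10, 10.275 kb, and with the trend over length removed its difference from D0 to D13 was -0.21 (adjusted p = 0.343).

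Daxx was 6.69 and 7.00 log2 CPM at D0, then 6.40 and 6.47 at D6, then 6.39 and 6.09 at D13. The days followed one another downwards without overlap, by small steps. The difference from D0 to D13 was -0.61 ± 0.22 (0.657 of the D0 level, 95% interval 0.464 to 0.931, adjusted p = 0.0542), which missed the threshold, as did that from D0 to D6 (-0.41 ± 0.22, adjusted p = 0.223). From D0 to D13 it passed with the length trend removed (-0.58, adjusted p = 0.0279) and without D13 replicate 1 (-0.76, adjusted p = 0.0412).

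Per length, Atrx and Daxx transcripts were present at nearly equal levels: the ratio of Atrx to Daxx was 1.07 and 0.869 at D0 and 1.05 and 1.02 at D6. At D13 it was 0.562 in replicate 1 and 1.45 in replicate 2. Between these samples Atrx differed by -1.07 and Daxx by 0.30 log2 units, replicate 1 against replicate 2.

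**Figure D2:**
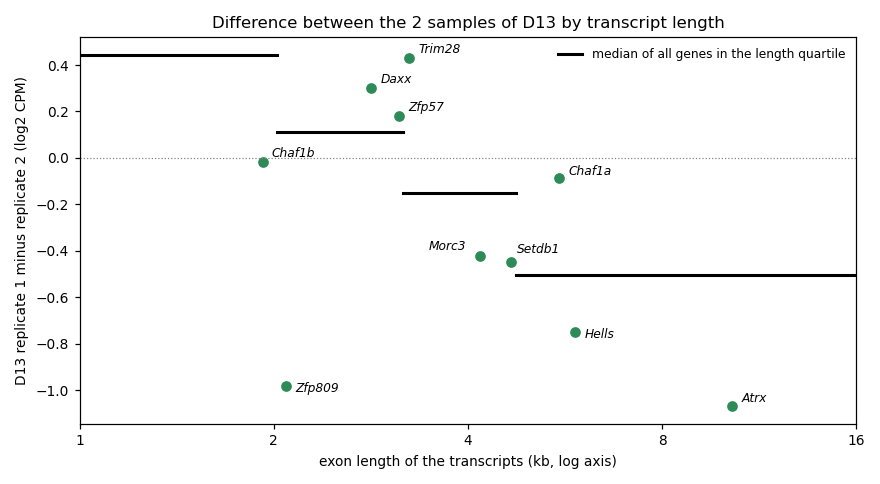
Difference in log2 CPM between replicate 1 and replicate 2 of D13 (y axis) against exon length in kb (x axis, log scale) for the 10 silencing factors (points), with the median of all genes in each length quartile (bars). The medians run from 0.44 in the shortest quartile to -0.51 in the longest; Atrx (-1.07) and Zfp809 (-0.98) lie lowest, and Trim28 (0.43) highest.

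CAF-1 is the chaperone that deposits histones H3 and H4 behind the replication fork, and its 2 specific subunits, the large p150 (Chaf1a) and the smaller p60 (Chaf1b), are expected in one complex. The order of the days differed between their transcripts, but this difference was not tested. Chaf1a was 7.28 and 7.16 log2 CPM at D0, then 6.76 and 6.69 at D6, then 6.49 and 6.57 at D13. Replicates were close, and each day was below the one before it with no overlap.

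Chaf1a fell by 0.69 ± 0.20 on the log2 scale from D0 to D13 (0.620 of the D0 level, 95% interval 0.455 to 0.844, adjusted p = 0.0214). From D0 to D6 the difference was -0.49 ± 0.20 (adjusted p = 0.109) and from D6 to D13 -0.20 ± 0.20 (adjusted p = 0.568). The call from D0 to D13 was lost without D0 replicate 1 (-0.63, adjusted p = 0.0652), without D6 replicate 1 or 2 (both -0.69, adjusted p = 0.0837 and 0.0834), and with only the 4 samples of D0 and D13 fitted (adjusted p = 0.0821). Chaf1a is in the longest quartile of exon length, whose median difference from D0 to D13 was -0.37, and with the trend over length removed it gave -0.40 (adjusted p = 0.103). Of its exon bases, 1862 are shared with Ubxn6 on the opposite strand, which differed by -0.22 ± 0.29 from D0 to D13 (adjusted p = 0.565). The libraries were stranded, but the strand setting of the count is not given in the sources used here.

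Chaf1b was 6.53 and 6.61 log2 CPM at D0, then 7.22 and 7.03 at D6, then 6.77 and 6.79 at D13. It was highest at D6, without overlap, and at D13 lay between the other days. The difference from D0 to D6 was 0.56 ± 0.20 (1.48-fold, 95% interval 1.08 to 2.02, adjusted p = 0.0744), and from D0 to D13 it was 0.21 ± 0.20 (adjusted p = 0.411), neither of which passed. From D0 to D6 it passed by a small margin with the length trend removed (0.52, adjusted p = 0.0494), and without D13 replicate 1 or 2 (both 0.56, adjusted p = 0.0439 and 0.0437).

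The ratio of Chaf1a to Chaf1b, per length, was 0.584 and 0.511 at D0, then 0.253 and 0.275 at D6, then 0.285 and 0.299 at D13. Both D0 values were well above the other 4, so that the mean ratio of 0.548 ± 0.0522 at D0 stood beside 0.264 ± 0.0156 at D6 and 0.292 ± 0.0102 at D13 (SD, n = 2). On the log2 scale the mean ratio changed by -1.05 from D0 to D6 and by -0.90 from D0 to D13. Chaf1b is in the shortest quartile of exon length, whose median difference from D0 to D13 was 0.35, and Chaf1a in the longest, with -0.37. With the trend over length removed, the ratio changed by -0.91 from D0 to D6 and by -0.50 from D0 to D13. By the smallest root mean square difference of the centred log2 CPM over the 6 samples, among 11389 genes, those nearest in pattern to Chaf1a were Nmd3 (0.0313) and Cenpo (0.0412).

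**Figure D3:**
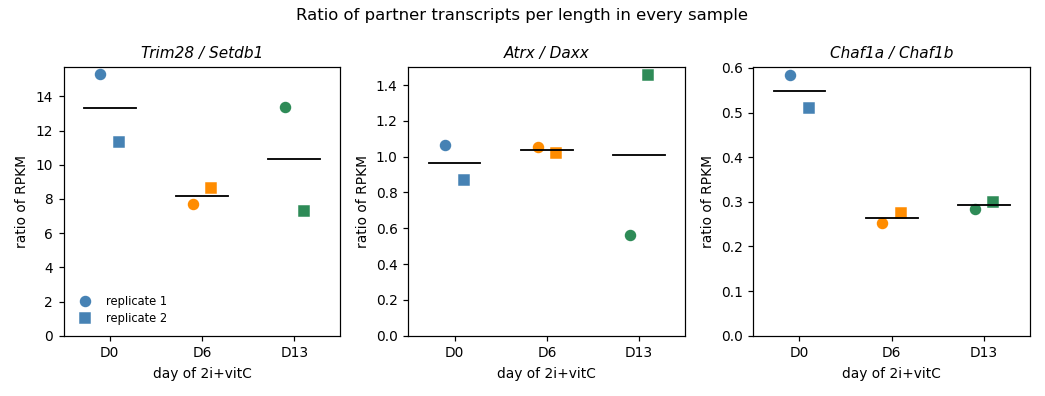
Ratio of RPKM (y axis, linear from 0) of Trim28 to Setdb1, Atrx to Daxx and Chaf1a to Chaf1b at D0, D6 and D13 (x axis), with circles for replicate 1, squares for replicate 2 and a line at the mean. The ratio of Chaf1a to Chaf1b was 0.548 at D0 and 0.264 and 0.292 later, whereas the D13 samples of both other pairs spread over most of the range.

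The paper reports that DNA methylation was lost after this medium change, which also altered other conditions of culture. The sequence just before the starts of these genes was therefore read for CpG, the dinucleotide that is methylated. All 10 members matched, with 15 RefSeq starts on GRCm38.p6, and CpG was counted in the 250 bases before each start. The median over all 32851 starts of the table was 6. The starts of Zfp57, the member that rose from D0 to D6, held 3, 6 and 7 CpG, those of Zfp809 11 and 11 and that of Atrx 6. Setdb1 had 13, Trim28 and Morc3 17 each, Chaf1b 21, Chaf1a and Hells 28 each, and Daxx 25, 29 and 30. The CpG count of Chaf1a was above that of 92.4% of all starts, and the count of the most CpG-rich Zfp57 start above that of 53.7%. Methylation at these starts was not analysed here. The 120 bases before the start are shown for the 4 members whose course is described above in most detail, to let the zinc finger genes be compared with the CAF-1 genes, with every CG in capitals and all on the + strand of the genome.
Zfp57, chr17:37001043-37001162: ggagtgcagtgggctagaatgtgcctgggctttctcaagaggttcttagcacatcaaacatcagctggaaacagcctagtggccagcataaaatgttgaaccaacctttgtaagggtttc
Zfp57, chr17:37002405-37002524: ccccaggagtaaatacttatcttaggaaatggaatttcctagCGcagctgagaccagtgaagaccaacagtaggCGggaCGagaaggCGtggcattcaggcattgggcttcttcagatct
Zfp809, chr9:22225583-22225702: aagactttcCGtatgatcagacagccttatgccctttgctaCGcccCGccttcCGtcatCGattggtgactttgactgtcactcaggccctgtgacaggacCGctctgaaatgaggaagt
Chaf1a, chr17:56040296-56040415: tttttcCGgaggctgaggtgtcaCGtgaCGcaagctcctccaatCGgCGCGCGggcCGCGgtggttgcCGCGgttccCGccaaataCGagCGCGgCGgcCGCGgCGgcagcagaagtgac
Chaf1b, chr16:93883781-93883900: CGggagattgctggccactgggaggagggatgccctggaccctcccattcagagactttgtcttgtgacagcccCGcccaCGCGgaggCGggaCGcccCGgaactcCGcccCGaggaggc
The other Zfp57 start, with 0 CG in this window, and the other Zfp809 start, whose window overlaps the one shown and holds 6, are left out. The windows shown held 0 and 4 CG for Zfp57, 6 for Zfp809, 19 for Chaf1a and 9 for Chaf1b, and a count of CG says nothing about whether they were methylated or bear on the level.

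Hells encodes the SNF2-like remodeller whose loss strips DNA methylation from repeats. It was 9.48 and 8.72 log2 CPM at D0, then 8.75 and 9.02 at D6, then 8.28 and 9.03 at D13. D0 replicate 1 was the highest sample and D13 replicate 1 the lowest, and all 3 days overlapped. The difference from D0 to D13 was -0.44 ± 0.33 (adjusted p = 0.316), with a 95% interval of the ratio from 0.435 to 1.25, from D0 to D6 it was -0.21 ± 0.33 (adjusted p = 0.704), and from D6 to D13 -0.23 ± 0.33 (adjusted p = 0.714). The SD of Hells between replicates was 0.54 at D0 and 0.53 at D13.

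Morc3 was 7.69 and 7.83 log2 CPM at D0, then 7.95 and 7.95 at D6, then 7.62 and 8.04 at D13. The samples of D13 enclosed those of both other days. The difference from D0 to D6 was 0.19 ± 0.22 (adjusted p = 0.607) and from D0 to D13 0.07 ± 0.22 (adjusted p = 0.827, ratio 1.05, 95% interval 0.738 to 1.48), so that its interval was narrower than those of Hells or Atrx and held no 2-fold change.

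**Figure D4:**
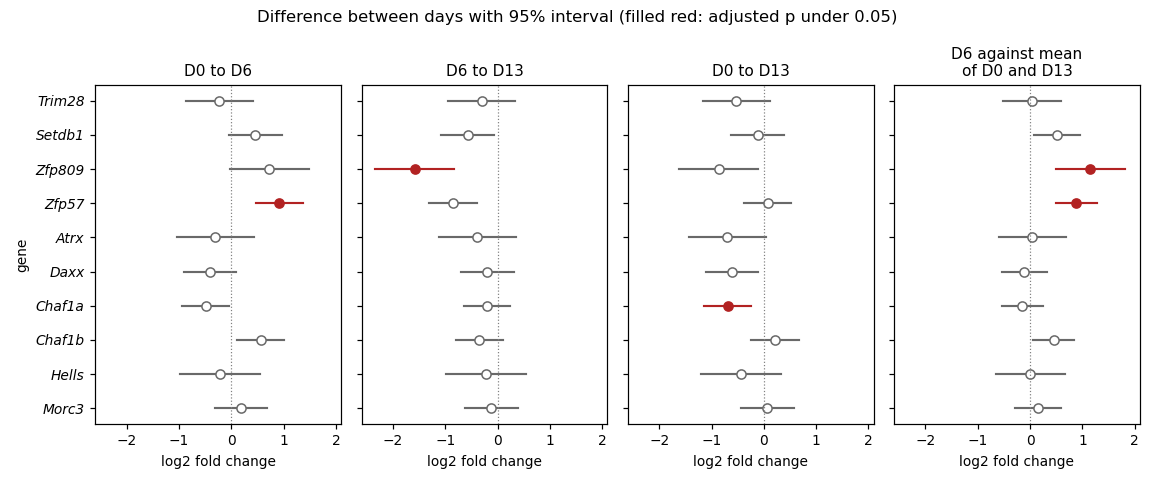
Log2 fold change of each of the 10 silencing factors (x axis) with its 95% interval (line) in 4 comparisons: D0 to D6, D6 to D13, the whole course, and D6 against the mean of D0 and D13; filled red marks an adjusted p under 0.05. Zfp57 was called from D0 to D6 (0.92), Zfp809 from D6 to D13 (-1.58), Chaf1a from D0 to D13 (-0.69), and Zfp57 (0.88) and Zfp809 (1.15) at D6 against the mean of the other days.

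Ordered by RPKM, Trim28 led on every day and Zfp809 was last at D0 and D13. At D0 the order below Trim28 was Hells (96.8), Zfp57 (59.6), Morc3 (52.0), Chaf1b (49.3), Daxx (40.7), Atrx (38.9), Setdb1 (37.8), Chaf1a (27.0) and Zfp809 (15.0). The replicates of Morc3 and Chaf1b, of Daxx and Atrx, and of Daxx and Setdb1 overlapped. At D6 Zfp57 had moved above Hells (113 against 80.9 RPKM, without overlap) and Zfp809 above Chaf1a (24.6 against 19.2 RPKM, without overlap). At D13 the order was again that of D0 at its ends, with Trim28 at 349, Hells at 71.2 and Zfp57 at 62.7 RPKM at the top, where Hells and Zfp57 overlapped, and Chaf1a at 16.7 and Zfp809 at 8.69 RPKM at the bottom. Chaf1b (57.2) then stood before Morc3 (55.0), though their replicates overlapped, as did those of Daxx (26.7) and Atrx (25.7), and those of Atrx and Chaf1a. Replicates of Hells also overlapped with those of Chaf1b and Morc3, those of Zfp57 with Morc3, and those of Atrx with Setdb1.

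Genes that work with the 10 were read from 7 lists drawn up by function, with earlier results of these data known. Their counts from D0 to D13 are to be read beside 20.6% of all rows that rose and 21.5% that fell. Genes of a list differ in length, and over this span the median of all genes ran from 0.35 in the shortest length quartile to -0.37 in the longest. Of 11 partners of KAP1 and SETDB1, 0 rose and 1 fell from D0 to D6 by limma at an adjusted p under 0.05 (1 and 1 at an unadjusted p under 0.05), and 1 rose and 3 fell from D0 to D13, with a median log2 difference of -0.02 over the list and of -0.02 over all genes and families. Smarcad1, a remodeller that binds KAP1, fell by 1.25 ± 0.25 (adjusted p = 0.00418), Cbx1, which encodes the H3K9me3 reader HP1β, fell by 0.97 ± 0.21 (adjusted p = 0.00592), and the deacetylase gene Hdac2 rose by 0.88 ± 0.22 (adjusted p = 0.0132). Smarcad1 was 7.93 and 7.96 log2 CPM at D0, then 7.34 and 7.52 at D6, then 6.39 and 7.01 at D13. Its days followed one another downwards without overlap.

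Of 7 genes of the HUSH complex, the MORC family and Smchd1, 1 rose and 2 fell from D0 to D13, with a median of -0.53. The gene that rose was Morc1, a germ cell and ES cell relative of Morc3, which was 6.02 and 6.59 log2 CPM at D0, then 8.09 and 8.02 at D6, then 8.49 and 8.03 at D13. It rose by 1.75 ± 0.26 already by D6 (adjusted p = 0.00157) and by 1.96 ± 0.26 by D13 (adjusted p = 0.000584), whereas Morc3 differed by 0.19 and 0.07 over the same steps. Pphln1, a HUSH subunit, fell by 1.03 ± 0.25 from D0 to D13 (adjusted p = 0.0109) and Morc2a, which works with HUSH, by 0.74 ± 0.23 (adjusted p = 0.0281).

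Of 10 further KRAB zinc finger genes, 8 had a row, and by limma 3 of them fell and 0 rose from D0 to D13 (4 and 1 at an unadjusted p under 0.05), with a median of -0.63. Zfp819 fell by 2.37 ± 0.35 (adjusted p = 0.00103), Zfp568, which binds the promoter of the placental Igf2 transcript, by 1.32 ± 0.32 (adjusted p = 0.0114), and Zfp180 by 0.80 ± 0.25 (adjusted p = 0.0291). Zfp819 was 4.20 and 5.22 log2 CPM at D0, then 4.47 and 4.53 at D6, then 2.48 and 2.20 at D13, so that, as for Zfp809, the loss came after D6 (-2.16 ± 0.35 from D6 to D13, adjusted p = 0.0234). None of these 8 was called from D0 to D6 or at D6 against the mean of D0 and D13 by limma, where 1 and 2 were higher at an unadjusted p under 0.05, and the same caution on similar gene copies holds.

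Of 9 genes for H3.3 and its chaperones, 2 fell and 0 rose from D0 to D13 by limma (3 and 0 at an unadjusted p under 0.05), with a median of -0.50. These were Hira, the chaperone that deposits H3.3 outside heterochromatin (-1.18 ± 0.21, adjusted p = 0.00271), and its partner Ubn1 (-0.89 ± 0.31, adjusted p = 0.046). Hira was 6.83 and 7.15 log2 CPM at D0, then 6.60 and 6.74 at D6, then 5.84 and 5.79 at D13. Both D13 samples were well below the other 4. The H3.3 genes H3f3a and H3f3b differed by 0.12 ± 0.22 and -0.50 ± 0.25 (adjusted p = 0.674 and 0.133).

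Of the 4 partners of HELLS and of maintenance methylation, Uhrf1 rose by 1.65 ± 0.22 from D0 to D13 (adjusted p = 0.000537) and Cdca7l fell by 1.63 ± 0.30 (adjusted p = 0.00289), with a median of 0.44 over the list. UHRF1 brings the methyltransferase DNMT1 to hemimethylated DNA, and CDCA7 is the zinc finger protein that activates HELLS, of which CDCA7L is a paralog. Cdca7 itself differed by 0.47 ± 0.20 (adjusted p = 0.0823) and Dnmt1 by 0.41 ± 0.23 (adjusted p = 0.181). Of 12 genes of the SUMO pathway, which KAP1 and MORC3 depend on for silencing, 1 fell (Pias1, -0.77 ± 0.27, adjusted p = 0.0471) and 0 rose by limma (1 each at an unadjusted p under 0.05), with a median of 0.11.

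CAF-1 acts at the replication fork, so 24 DNA replication genes were read beside it. From D0 to D13, 3 rose and 4 fell, with a median of 0.22, and none was called over the earlier or the later step by limma, where 4 and 3 passed an unadjusted p of 0.05. Their summed level was 6045 and 5017 CPM at D0, then 5875 and 6349 CPM at D6, then 6344 and 6421 CPM at D13. D0 overlapped with D6, and D6 with D13. Ccne1 fell by 1.31 ± 0.45 (adjusted p = 0.0435), a value set by D0 replicate 1 (8.39 against 6.78 log2 CPM in replicate 2), without which it was -0.50 (adjusted p = 0.192), and its call was also lost without D13 replicate 1 (-1.33, adjusted p = 0.154) or 2 (-1.28, adjusted p = 0.139). E2f1 rose by 0.97 ± 0.27 (adjusted p = 0.0189) and Mcm6 by 0.89 ± 0.21 (adjusted p = 0.0101).

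**Figure D5:**
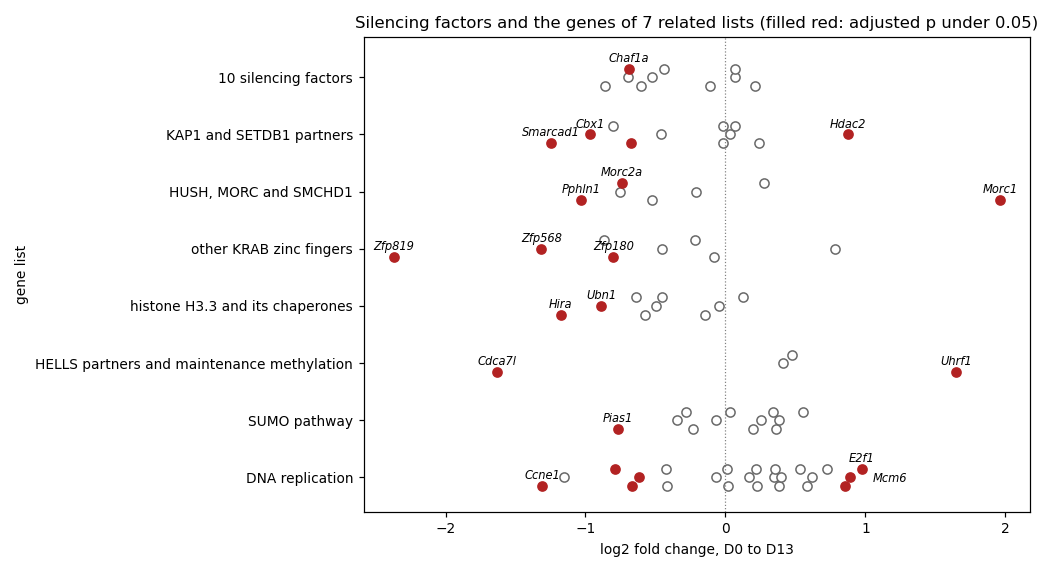
Log2 fold change from D0 to D13 (x axis) of every measured gene among the 10 silencing factors and in 7 lists of related genes (y axis); filled red marks an adjusted p under 0.05, and the genes with the largest such change in each list are named. Morc1 (1.96) and Uhrf1 (1.65) lie farthest right and Zfp819 (-2.37) and Cdca7l (-1.63) farthest left, while the 10 factors lie between -0.86 and 0.21.

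Several of the calls in these lists were lost with 1 sample left out, in fits that called 4028 to 5892 of the 12928 rows from D0 to D13, against 5441 with all samples. Without D13 replicate 1 the difference from D0 to D13 was -0.51 for Morc2a (adjusted p = 0.0861), -0.92 for Zfp568 (adjusted p = 0.0725), -0.58 for Zfp180 (adjusted p = 0.0999), -0.51 for Ubn1 (adjusted p = 0.219), -0.44 for Pias1 (adjusted p = 0.166) and 0.82 for E2f1 (adjusted p = 0.0912). Without D0 replicate 1 the call was lost for Pphln1 (-0.86, adjusted p = 0.0589), Morc2a (-0.79, adjusted p = 0.064), Pias1 (-0.85, adjusted p = 0.0858) and E2f1 (0.64, adjusted p = 0.0872). Without D0 replicate 2 it was lost for Morc2a (-0.70, adjusted p = 0.089), Zfp568 (-0.95, adjusted p = 0.0729), Zfp180 (-0.66, adjusted p = 0.109), Ubn1 (-0.59, adjusted p = 0.22) and Pias1 (-0.69, adjusted p = 0.142). Without D6 replicate 1 or 2 the values of Morc2a, Zfp180, Ubn1 and Pias1 did not move, but their adjusted p lay between 0.0644 and 0.0959. With the length trend removed, Ubn1 (-0.54, adjusted p = 0.0562) and Pias1 (-0.48, adjusted p = 0.0548) lost their call. From D0 to D13, Smarcad1, Cbx1, Hdac2, Morc1, Zfp819, Hira, Uhrf1, Cdca7l and Mcm6 were called with any 1 sample left out. The fall of Zfp819 from D6 to D13 was not called without D6 replicate 1 (-2.19, adjusted p = 0.0623), D6 replicate 2 (-2.13, adjusted p = 0.101) or D13 replicate 1 (-2.30, adjusted p = 0.104), where 64, 21 and 0 of all rows were called, and its size stayed near the -2.16 of all samples.

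The transposon families these silencers act on were measured in the same samples, where a read was shared among its mapping sites. Of 10 families listed, 9 had a row. By limma 5 rose and 0 fell from D0 to D6 (6 and 0 at an unadjusted p under 0.05), against 13.7% and 10.2% of all genes and families. From D6 to D13, 0 rose and 4 fell (0 and 5 unadjusted), against 1.39% and 2.78% of all. These shares cover 12626 genes and 302 families, and the share over families alone was not computed. The paper reports that nearly every family rose by D6 and that silencing largely returned by D13. The counts therefore do not set these 9 families apart from other transposons. Not called from D0 to D6 were MMERVK10C-int (0.39 ± 0.50, adjusted p = 0.637), ETnERV-int (0.36 ± 0.47, adjusted p = 0.641), MERVL-int (-0.13 ± 0.38, adjusted p = 0.849) and L1Md_T (0.61 ± 0.26, adjusted p = 0.126). Not called from D6 to D13 were MMERVK10C-int (-1.09 ± 0.50, adjusted p = 0.222), ETnERV-int (-0.11 ± 0.47, adjusted p = 0.913), MMERGLN-int (-1.19 ± 0.36, adjusted p = 0.0903), IAPEz-int (-0.45 ± 0.32, adjusted p = 0.416) and RLTR4_MM-int (-0.49 ± 0.34, adjusted p = 0.406). From D0 to D13, 2 rose, ETnERV3-int (3.02 ± 0.56, adjusted p = 0.00319) and MMERGLN-int (3.82 ± 0.36, adjusted p = 0.000103), and 3 fell, L1Md_A, L1Md_T and MERVL-int, beside 20.6% and 21.5% of all. ETnERV3-int and MMERGLN-int, internal parts of endogenous retroviruses, rose most. ETnERV3-int was 2.74 and 1.34 log2 CPM at D0, then 9.31 and 7.67 at D6, then 4.94 and 5.18 at D13. It rose by 6.45 ± 0.56 from D0 to D6 (adjusted p = 0.000116) and fell by 3.43 ± 0.56 from D6 to D13 (adjusted p = 0.0234). MMERGLN-int was 4.78 and 4.06 log2 CPM at D0, then 9.84 and 9.02 at D6, then 7.94 and 8.55 at D13, a rise of 5.01 ± 0.36 from D0 to D6 (adjusted p = 4.88e-05). These rises were called with any 1 sample left out, and both families stood far above D0 at D6 without overlap.

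The young LINE-1 families and MERVL fell after D6. L1Md_A was 10.09 and 10.68 log2 CPM at D0, then 11.47 and 11.55 at D6, then 8.93 and 9.53 at D13, so that it rose by 1.12 ± 0.31 (adjusted p = 0.0287) and then fell by 2.28 ± 0.31 (adjusted p = 0.016). From D6 to D13, L1Md_T fell by 1.84 ± 0.26 (adjusted p = 0.0174) and MERVL-int fell by 1.91 ± 0.38 (adjusted p = 0.0337). Both D13 samples of each were below the other 4. Without D13 replicate 1, where 0 of all rows were called over this step, the differences from D6 to D13 were -3.31 for ETnERV3-int, -1.98 for L1Md_A, -1.74 for L1Md_T and -1.30 for MERVL-int. Without D6 replicate 1 or 2 (64 and 21 rows called), L1Md_T (-1.78 and -1.91) and MERVL-int (-1.73 and -2.10) were not called, nor was L1Md_A without replicate 2 (-2.24). The rise of L1Md_A was not called without D0 replicate 1 (0.83, adjusted p = 0.126) or D6 replicate 1 (1.16, adjusted p = 0.128) or 2 (1.09, adjusted p = 0.145).

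IAPEz-int, the internal part of the intracisternal A particle that KAP1 and SETDB1 repress, was 7.26 and 6.98 log2 CPM at D0, then 8.76 and 7.84 at D6, then 7.66 and 8.05 at D13. It rose by 1.19 ± 0.32 from D0 to D6 (adjusted p = 0.0257), and its D6 and D13 samples overlapped. The call was lost without D0 replicate 1 (1.32, adjusted p = 0.0676), D0 replicate 2 (1.05, adjusted p = 0.12) or D6 replicate 1 (0.73, adjusted p = 0.293), and without the mean-variance trend (adjusted p = 0.0528). Over the same step Trim28 differed by -0.23 and Setdb1 by 0.46, neither past the test.

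RLTR4_MM-int belongs to a family that the paper describes as close in sequence to murine leukaemia virus. Whether it holds the primer binding site that ZFP809 reads was not tested. It was 4.66 and 3.79 log2 CPM at D0, then 5.62 and 5.0 at D6, then 4.74 and 4.89 at D13. Like Zfp809 it stood highest at D6, where both samples were above the other 4. It rose by 1.08 ± 0.34 from D0 to D6 (adjusted p = 0.0471), a call that was lost without D0 replicate 2 (0.65, adjusted p = 0.205), D6 replicate 1 (0.77, adjusted p = 0.366) or D13 replicate 1 or 2 (both 1.08, adjusted p = 0.0695 and 0.0693), and with samples centred on the median gene (1.04, adjusted p = 0.0594). From D6 to D13, the step over which Zfp809 fell, it differed by -0.49 ± 0.34 (adjusted p = 0.406).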

How the data were processed

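RNA-seq of WT J1 ES cells was analysed at D0, D6 and D13, with 2 biological replicates per day. The authors mapped reads to mm10 with TopHat2 2.0.6, counted genes with HTSeq 0.6.1 and transposon families from Bowtie 1.0.0 alignments, and deposited log2 CPM from voom after TMM scaling. Reads were recovered from these values after the voom offset of 0.5, and all gene values lay within 0.01 of a whole read, whereas family values, for which a read is shared among its mapping sites, are fractional. Days were compared with limma 3.58.1 (R 4.3.3), by a mean per day with an empirical Bayes mean-variance trend, with p-values adjusted by the Benjamini-Hochberg method across 12928 rows. Summaries used pandas 2.3.3 and numpy 2.4.6 under Python 3.11.15. In simulated data for D0 to D6 over 12928 rows, 90% of genes changed by a log2 value of 1 and 100% of those changed by 2 were called, with 4 unchanged ones. The simulated reads had the same fixed dispersion for every row and no difference by transcript length. Changes were put only on rows well covered by reads. These shares therefore check the fit and do not give its power in the real samples.

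RPKM used the exon length of GENCODE vM21 transcripts paired with RefSeq on GRCm38. The members and lists were chosen with earlier results of these data known. All 10 members were named, any of the target families could be named, and of each other list up to 3 genes with the largest log2 fold change from D0 to D13 past an adjusted p of 0.05, as well as the 2 genes nearest in pattern to a member called from D0 to D13. H3f3a, H3f3b, Cdca7, Dnmt1, Pou5f1 and the markers with a row were named besides, after their values were seen. The lists cover KAP1 and SETDB1 partners, HUSH, MORC and SMCHD1, other KRAB zinc fingers, histone H3.3 and its chaperones, HELLS partners and maintenance methylation, the SUMO pathway, DNA replication, target families, and ES cell, fibroblast and endoderm markers. The letter G is missing from gene names wherever it was a capital, which touches no member. Alternatives were a read filter, a replicate block, only the days compared, leaving out each sample, median centring, voom precision weights, no trend, genes only, and other thresholds. Removal of a lowess trend over transcript length (span 0.3, 11184 genes with a length) was chosen after seeing the data.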

Additional observations from a re-analysis of the deposited data

How the results depend on the processing

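The number of the 10 members past an adjusted p of 0.05 depended on the fit. With only the days compared it was 3 from D0 to D6 (Chaf1b, Zfp57 and Zfp809), 2 from D6 to D13 (Zfp57 and Zfp809) and 0 from D0 to D13, and no fit of this kind exists for D6 against the mean of D0 and D13. Without the mean-variance trend it was 0 from D6 to D13 and 1 (Zfp57) at D6 against that mean. With genes alone fitted it was 2 from D6 to D13. With the trend over transcript length removed it was 3 from D0 to D6 (Chaf1b, Setdb1 and Zfp57), 2 from D6 to D13, 1 from D0 to D13 (Daxx in place of Chaf1a) and 1 at D6 against the mean (Zfp57). At an adjusted p under 0.01, and at a 4-fold minimum, it was 0 in all 4 comparisons, and a 2-fold minimum left 0 from D0 to D6 and from D0 to D13 and 1 (Zfp809) at D6 against the mean. The read filter removed nothing, and median centring and voom precision weights changed none of these counts.

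With each sample left out in turn the count ranged from 0 to 3 in each comparison of 2 days and from 0 to 2 at D6 against the mean. It was 0 in every comparison without D6 replicate 1 or replicate 2. Over all 12928 rows the calls moved too, from 1602 to 3570 (3090 with all samples) between D0 and D6, 0 to 1357 (540) between D6 and D13, 4028 to 5892 (5441) between D0 and D13 and 255 to 1416 (1147) at D6 against the mean. Members that crossed 0 over these fits were Trim28 (-0.11 to 0.18), Atrx (-0.22 to 0.31) and Hells (-0.19 to 0.20) at D6 against the mean, Setdb1 (-0.34 to 0.11), Zfp57 (-0.019 to 0.16) and Morc3 (-0.15 to 0.28) from D0 to D13, Hells from D0 to D6 (-0.60 to 0.17), and Atrx (-0.93 to 0.14), Hells (-0.60 to 0.15) and Morc3 (-0.33 to 0.092) from D6 to D13. Centring on the median gene gave -0.016 for Trim28, -0.0090 for Atrx and -0.048 for Hells at D6 against the mean, and removing the length trend gave 0.10 for Setdb1 from D0 to D13, -0.034 for Hells at D6 against the mean and 0.0050 for Morc3 from D6 to D13. None of these was past the test in the fit reported.

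Whether the replicate numbers paired the samples was not settled, as the correlation over genes between deviations of same-numbered samples differed in sign. It was -0.13 for D0 and D6, 0.33 for D6 and D13 and 0.14 for D0 and D13. A replicate block raised the number of rows called in every comparison. Between D0 and D6 it was 3530 in place of 3090, and between D6 and D13 1251 in place of 540. Between D0 and D13 it was 5978 in place of 5441, and at D6 against the mean 1494 in place of 1147. With the replicate number as a block, 1 member was called from D0 to D6 (Zfp57), 2 from D6 to D13 (Zfp57 and Zfp809), 2 from D0 to D13 (Chaf1a and Zfp809) and 2 at D6 against the mean (Zfp57 and Zfp809), and the block changed no other call among the members. With 2 replicates a day, a member's standard error between 2 days was 0.20 to 0.33 log2 units, the smallest such difference called was -0.69 (Chaf1a) and one of -0.86 (Zfp809, D0 to D13) was not called.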
